A study of Mus musculus with 4 samples.

Results

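The very wide peaks were the 1173 autosomal peaks longer than 2000 bp in an ATAC-seq experiment on mouse bone marrow monocytes, 2.06% of the 57090 peaks in the merged peak set. They were chosen by length alone, and 16 further peaks over 2000 bp on chromosomes X and Y were left out. The 7224 autosomal peaks longer than 1000 bp and up to 2000 bp served as comparison peaks. There were 4 libraries, 2 per skeletal site (femur and mandible), and 20000 monocytes of 2-mo-old C57BL/6J mice went into each. The labels name no treatment and no altered allele. They give the sex as male, while both sexes are named where the study describes how the cells were isolated. Marrow of 4 mice was pooled per batch, and batch A gave femur replicate 1 and mandible replicate 1 while batch B gave femur replicate 2 and mandible replicate 2. The labels call the cells CD11b+, and the protocol collected them as the cells left after other lineages had been bound to a column, so the fraction was defined by what was removed. Marker genes of the cell type were not analysed here, because peaks were not assigned to genes.

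ATAC-seq uses a transposase that cuts open chromatin and leaves sequencing adapters at the cuts, so reads pile up over promoters and enhancers that are free of nucleosomes. A peak caller joins neighbouring cut sites into 1 interval, and a very wide interval can arise where a promoter and its flanking enhancers, a cluster of closely spaced genes or a highly transcribed gene body is open along its length. In myeloid cells such clusters of open elements are known around genes that define the lineage and around genes that respond quickly to stimuli. In a bulk library, a lower signal from fewer cells with the region open and from less opening in each cell cannot be told apart. The lengths of these peaks come from the same libraries as their counts.

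The total count in peaks ranged from 27464565 in mandible replicate 2 to 75294068 in femur replicate 2. The members were well covered, with median counts of 4641 and 7449 in femur replicates 1 and 2 and of 3501 and 3120 in mandible replicates 1 and 2, and a lowest count of 366 in any library. Femur replicate 2 stood apart from the others. When each library was set against the mean of the other 3, the SD of this log2 deviation over the members was 0.27 for femur replicate 2 and 0.14 to 0.18 for the other libraries. This was not particular to the members. In the comparison peaks it was 0.27 against 0.14 to 0.17, and over all peaks 0.42 against 0.23 to 0.32.

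Very wide peaks held a larger share of the counts than of the sequence. They covered 10.0% of the summed peak length and held 14.5% of the counts of femur replicate 1, 13.3% of those of femur replicate 2, 15.2% of those of mandible replicate 1 and 15.4% of those of mandible replicate 2. Their length had a median of 2352 bp and a maximum of 18588 bp. Most were only slightly over the threshold, with 720 of 2001 to 2500 bp, whereas 208 were longer than 3000 bp, 75 longer than 4000 bp, 42 longer than 5000 bp and 10 longer than 10000 bp.

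Mean CPM, the count per 1000000 counts in peaks averaged over the 4 libraries, had a median of 106.6 in the members (quartiles 74.9 and 153.1) and of 50.5 in the comparison peaks. Read density, the mean CPM divided by the length, had a median of 42.7 CPM per kb in the members, 37.8 in the comparison peaks and 18.3 in autosomal peaks of at most 1000 bp. The members were therefore not only longer but also denser than most shorter peaks. The same order held in each library, with member medians of 42.2 and 40.01 CPM per kb in femur replicates 1 and 2 and of 43.6 and 45.3 in mandible replicates 1 and 2, and comparison medians between 37.2 and 38.3. Among the members, however, density did not rise further with length. Its Spearman correlation with length was -0.12 across the 1173 members and 0.20 across the 7224 comparison peaks. These values describe peaks of the same libraries that share depth and peak caller. The median was 44.0 CPM per kb at 2001 to 2500 bp, 38.9 over 3000 and up to 4000 bp and 30.1 in the 10 members over 10000 bp.

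**Figure D1:**
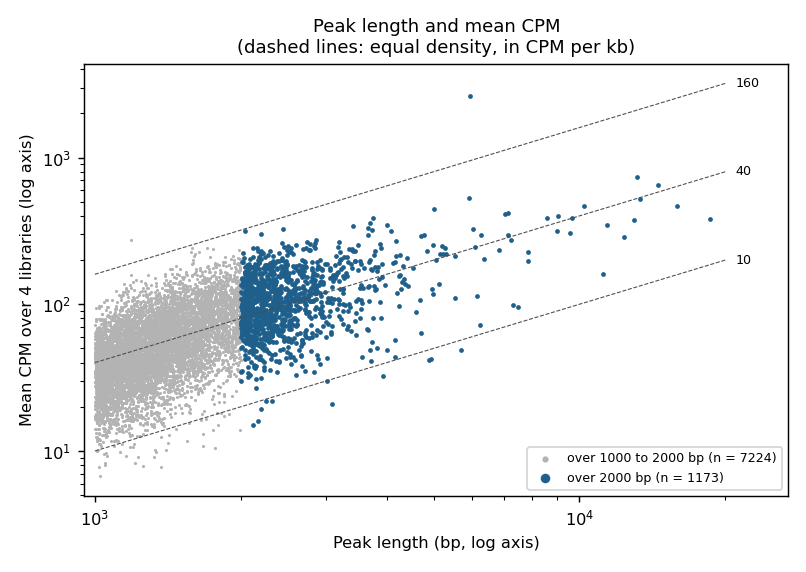
Length in bp against mean CPM over the 4 libraries, both on log axes, for 1173 members in blue and 7224 comparison peaks in grey, with dashed lines of equal density at 10, 40 and 160 CPM per kb. The densities of the members spread around a median of 42.7 CPM per kb, a single peak of 5933 bp stands far above the others at 2609 CPM, and a tail of members falls below the line of 10 CPM per kb.

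Since CPM rises with length, members were set against comparison peaks of like mean CPM in the 4 bands that held at least 20 of each, which took in 1147 members. At equal CPM the members were sparser, as a longer interval must be. Their median density was 0.59 times that of comparison peaks at 20 to 40 CPM, 0.66 times at 40 to 80, 0.71 times at 80 to 160 and 0.70 times at 160 to 320, while their median length was 1.89, 1.68, 1.47 and 1.47 times as large. Of the 26 members outside these bands, 23 had 320 CPM or more, with a median length of 7138 bp, and 3 had between 10 and 20 CPM.

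The widest member was Peak_3804, which spanned 18588 bp of chromosome 1 (chr1:190898066-190916653, GRCm39). Its library-size CPM, scaled by the library total alone, was 391 and 254 in femur replicates 1 and 2, and 321 and 557 in mandible replicates 1 and 2. The order of the sites was thus opposite in the batches, with mandible below femur in batch A and above it in batch B. Peak_7196, the next in length with 15919 bp (chr11:3134140-3150058), had 569 and 443 CPM in femur replicates 1 and 2, and 315 and 556 CPM in mandible replicates 1 and 2. Its low library was mandible replicate 1. Peak_27163 (chr19:5883268-5897819, 14552 bp) had 611 and 428 CPM in femur and 832 and 731 CPM in mandible, in the order of the replicates, and did not overlap between the sites. Peak_51458 (chr8:84926356-84939660, 13305 bp) had 527 and 433 CPM in femur and 489 and 653 CPM in mandible, and Peak_47034 (chr7:28070924-28084081, 13158 bp) had 744 and 580 CPM in femur and 799 and 813 CPM in mandible. In these 5 widest members the lowest library-size CPM was that of femur replicate 2 in all but Peak_7196. With the loess-normalized CPM described below, the lowest was that of mandible replicate 1 in all but Peak_27163.

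The strongest peak of the whole set was a member. Peak_23966 (chr17:40153837-40159769, 5933 bp) had a mean of 2609 CPM and a density of 439.8 CPM per kb, against 154.4 CPM per kb in the next densest member. Its nearest peaks lay 2571714 bp and 941072 bp away. It had 2287 and 3332 CPM in femur replicates 1 and 2 and 2246 and 2571 CPM in mandible replicates 1 and 2. Femur replicate 2 was thus the highest library here, and mandible replicate 1 differed from femur replicate 1 by -0.03 on the log2 scale of library-size CPM. No list of regions with excess signal was applied to the peak set.

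The next densest members were 2045 to 2441 bp long. Peak_39737 (chr4:156389766-156391810, 2045 bp) had 322 and 280.2 CPM in femur and 348 and 312 CPM in mandible. Peak_13512, of 2201 bp on chromosome 12, had 328 and 243 CPM in femur and 345 and 287 CPM in mandible. Peak_20619, of 2441 bp on chromosome 15, ranged from 273 to 372 CPM, and Peak_21663, of 2117 bp on chromosome 16, from 213 to 261 CPM. In all 4 of these peaks femur replicate 2 was the lowest and mandible replicate 1 the highest library in library-size CPM. This order depended on the scale. With the loess-normalized CPM described below, femur replicate 1 was the highest in all 4, and femur replicate 2 was the lowest only in Peak_20619.

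At the other end, the sparsest members had densities of 6.78 to 8.54 CPM per kb and varied much more between libraries. The sparsest, Peak_18705 on chromosome 15, is described with the tested peaks. Peak_27694 (chr19:21259333-21261455, 2123 bp) had 17.1 and 5.34 CPM in femur replicates 1 and 2 and 16.9 and 21.0 CPM in mandible replicates 1 and 2. Peak_20535 (chr15:101166922-101172630, 5709 bp) had 58.0 and 29.0 CPM in femur and 63.1 and 44.9 CPM in mandible. In both peaks femur replicate 2 was low and the sites lay further apart in batch B than in batch A. Peak_1324 (chr1:88182546-88186484, 3939 bp) went the other way, with 33.0 and 44.6 CPM in femur and 19.3 and 32.4 CPM in mandible. A further member, Peak_1325, began 328 bp from its end.

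The length threshold cut through a continuum. Just inside it, Peak_33381 of 2001 bp had CPM between 57.2 and 61.8, and Peak_12278 of 2002 bp between 73.5 and 79.4. Just outside, 2 peaks of 2000 bp, Peak_11851 and Peak_31870, had CPM between 79.7 and 96.9 and between 99.9 and 110.4.

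Whether very wide peaks differed between mandible and femur was first asked in each batch, where 1 mandible library was set against 1 femur library of the same pooled mice. On the scale of library-size CPM, the median log2 difference of mandible minus femur over the members was 0.07 in batch A (quartiles -0.02 and 0.14) and 0.19 in batch B (quartiles 0.06 and 0.33). Over all peaks these medians were -0.08 and -0.15. Relative to all peaks the members were thus higher in mandible by 0.15 in batch A and 0.33 in batch B, and the comparison peaks by 0.14 and 0.17. In the members 70.5% were higher in mandible in batch A and 82.2% in batch B, and 58.2% were higher in both. In batches A and B, 64.65% and 54.25% of comparison peaks were higher in mandible, and 37.49% and 36.65% of all peaks. The share higher in both was 12.24% of all peaks, and that of comparison peaks lay between this and the share of the members. Part of the excess over all peaks was thus shared with the comparison peaks, most of it in batch A.

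This shift depended on how counts were scaled. Loess normalization, which the authors used, sets each library level with the others at every mean CPM, and it left the members at -0.04 in batch A and 0.06 in batch B. With it, 34.5% of members were higher in mandible in batch A and 62.2% in batch B, and the direction was the same in both batches in 42.5%. Over all peaks these shares were 49.4%, 48.97% and 42.3%, and in the comparison peaks 53.92%, 45.68% and 38.33%. The share of members with the same direction was thus near that of all peaks. With TMM normalization, which sets 1 factor per library, the medians were 0.14 and 0.32. In the tests across both batches, 604 of 1173 members (51.5%) had a positive log2 fold change with loess, 1001 (85.3%) with library size alone, 1121 (95.6%) with TMM and 1123 (95.7%) with DESeq2, against 49.1%, 32.1%, 47.8% and 49.2% of all peaks. A general gain or loss of accessibility of very wide peaks in mandible could therefore not be given a size without choosing a scale.

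The comparison with peaks of like CPM was less open to this choice, since each scaling shifts such peaks nearly alike. Agreement between the scales was thus largely built in. In the 3 bands from 40 to 320 CPM, the median difference of the members lay below that of the comparison peaks in batch A and above it in batch B, on both scales. With library-size CPM, wide minus comparison came to -0.05 for batch A and 0.14 for batch B at 40 to 80 CPM, with 303 and 3382 peaks. It was -0.05 and 0.10 at 80 to 160 CPM, with 576 and 1340 peaks, and -0.03 and 0.08 at 160 to 320 CPM, with 239 and 74 peaks. At 20 to 40 CPM, where only 29 members stood against 2063 comparison peaks, it was positive in both batches, 0.09 and 0.16. The batches thus disagreed on the direction in the bands that held most members, and with 1 library per site in each batch no test of this disagreement was made.

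**Figure D2:**
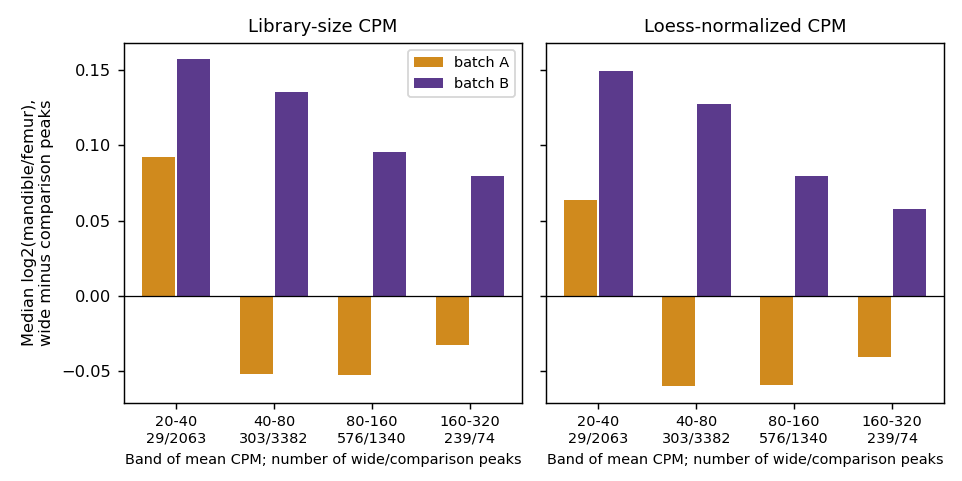
Median log2 difference of mandible minus femur in the members minus that in comparison peaks of the same band of mean CPM, for batch A and batch B, from library-size CPM on the left and loess-normalized CPM on the right, with the number of wide and comparison peaks under each band. In the 3 upper bands the bars of batch A lie below 0 and those of batch B above 0, from -0.05 and 0.14 at 40 to 80 CPM to -0.03 and 0.08 at 160 to 320 CPM with library-size CPM.

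Single libraries moved with this pattern. With loess-normalized CPM, the deviation of mandible replicate 2 from the other 3 libraries was higher in members than in comparison peaks in all 4 bands, by 0.07 to 0.19. That of mandible replicate 1 was lower, by 0.04 to 0.08, and that of femur replicate 2 was lower, by 0.03 to 0.17. In femur replicate 1 the shift was -0.09 at 20 to 40 CPM and at most 0.01 in size in the other bands. The 2 mandible libraries thus deviated in opposite directions in very wide peaks, and the part of these libraries in the pattern was not tested. The members also spread more than comparison peaks of like CPM. The SD of their log2 difference was 1.22 to 2.04 times that of comparison peaks in batch A, and 1.46 to 2.07 times in batch B up to 160 CPM, and 0.95 times at 160 to 320 CPM.

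Across both batches, edgeR's quasi-likelihood test with loess offsets and Benjamini-Hochberg adjustment over all 57090 peaks called 3 members higher in mandible at an adjusted p-value under 0.05 (background 0.00525% of all peaks) and 1 lower (background 0.00175%). These were all the calls of the experiment, and no comparison peak was called (without adjustment, 79 comparison peaks were higher and 29 lower at p under 0.05, and 16 and 2 were called with batch as a further term). At an unadjusted p-value under 0.05, 46 members were higher (background 1.61%) and 25 lower (background 1.1%), which is 6.05% of the members against 1.495% of the comparison peaks. With TMM the split was 337 higher (background 2.49%) and 5 lower (background 2.06%), and with library size alone 177 higher (background 1.17%) and 15 lower (background 4.53%). The p-values rest on the spread between 2 pools of mice per site, which the test draws mostly from all peaks together (15.7 prior degrees of freedom in the loess fit). The same pools gave both sites, and these fits did not use that pairing. With 2 libraries against 2, an exact two-sided permutation p cannot fall below 0.333.

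The larger share held at like CPM. The share of peaks with an unadjusted p-value under 0.05 was 34.5% of members against 1.55% of comparison peaks at 20 to 40 CPM, 5.94% against 1.12% at 40 to 80, 5.03% against 0.448% at 80 to 160, and 3.35% against 0% (0 of 74) at 160 to 320. Without femur replicate 2 these shares were 20.7% against 1.26%, 4.62% against 0.887%, 5.38% against 0.373% and 4.18% against 0%. The share rose with length, from 3.33% of the 720 members up to 2500 bp to 36.4% of the 33 members over 4000 and up to 5000 bp and 31.0% of the 42 longer ones. It fell with density, from 12.2% in the sparsest 294 members to 6.14%, 4.78% and 1.02% in the next sets of 293. Members in which both mandible libraries lay above both femur libraries with loess were 153 (13.04%, background 13.3%), and those with both below were 126 (10.7%, background 13.8%), so neither share exceeded that of all peaks on this scale. With library-size CPM, however, 520 members (44.3%) had both mandible libraries above both femur libraries, against 7.77% of all peaks, and 26 (2.22%) had both below, against 27.7%. In the comparison peaks these shares were 20.9% and 6.31%. At like CPM the share with both above was 37.9% of members against 8.29% of comparison peaks at 20 to 40 CPM. It was 24.1% against 20.7% at 40 to 80, 47.6% against 42.0% at 80 to 160 and 62.3% against 47.3% at 160 to 320.

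Among the 4 called members, Peak_25706 (chr18:34992508-35000340, 7833 bp) was the strongest, with 169 and 172 loess-normalized CPM in femur and 307 and 244 in mandible, in the order of the replicates. Both femur libraries were alike and both mandible libraries lay above them. Mandible exceeded femur by 0.86 (log2) in batch A and by 0.51 in batch B, and the log2 fold change of 0.69 (standard error 0.094) had an adjusted p of 0.0264 in the edgeR test. Without mandible replicate 1 it was 0.53 with an adjusted p of 0.125. Peak_42901 (chr5:142881727-142889207, 7481 bp) had 73.0 and 49.8 in femur and 132 and 120 in mandible on the same scale, and both femur libraries lay below both mandible libraries. The batches gave 0.86 and 1.27, the log2 fold change was 1.04 (standard error 0.142), and the adjusted p was 0.0264 in edgeR. This peak kept an adjusted p under 0.05 in all 9 other fits, the highest being 0.0250 with a minimum of 10 counts in every library.

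Peak_18705 (chr15:36782939-36786021, 3083 bp) was the sparsest member and had the largest change of the 4. It held 13.1 and 7.85 loess-normalized CPM in femur and 26.7 and 36.8 in mandible. Its log2 fold change was 1.61, with a standard error of 0.24 and an adjusted p of 0.0426 in edgeR. The batches gave 1.03 and 2.23, and leaving out mandible replicate 2 gave 1.39 (adjusted p = 0.107). The peak beside it, Peak_18704, ended 136 bp before its start and was 1697 bp long. It had a log2 fold change of 1.32 (adjusted p = 0.136 in edgeR), from 0.74 in batch A and 1.86 in batch B. Peak_13956 (chr13:23922096-23925147, 3052 bp) was lower in mandible, with 194 and 174 in femur and 123 and 116 in mandible. Its log2 fold change was -0.62, with a standard error of 0.092 and an adjusted p of 0.0426 in edgeR, and the batches gave -0.66 and -0.59. Its call was lost with TMM (-0.38, adjusted p = 0.936), with library size alone (-0.48, adjusted p = 0.241), with DESeq2 (-0.37, adjusted p = 0.999) and without mandible replicate 2 (-0.59, adjusted p = 0.153), while the direction was kept in all of these.

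**Figure D3:**
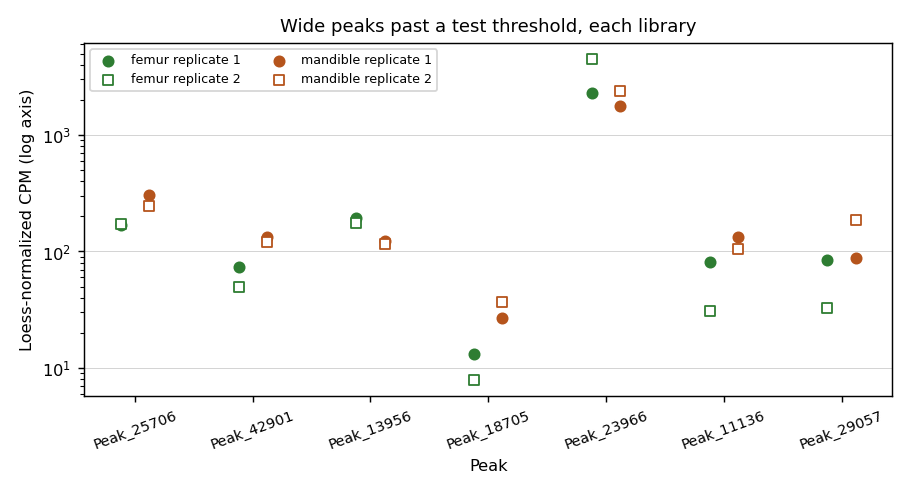
Loess-normalized CPM of each library on a log axis for the 4 called members and 3 further members named from the fit with a batch term, femur in green and mandible in orange, replicate 1 filled and replicate 2 open. Both mandible libraries lie above both femur libraries in Peak_25706, Peak_42901, Peak_18705, Peak_11136 and Peak_29057 and below them in Peak_13956, whereas in Peak_23966 femur replicate 1 at 2293 lies below mandible replicate 2 at 2377.

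Because same-numbered libraries came from the same pooled mice, the test was also fitted with batch as a replicate block. It called 19 members higher in mandible (background 0.0858%) and 8 lower (background 0.0193%), 27 of the 60 peaks called in the whole set, and all 4 members called without the block were among them. With 4 libraries and a further term, little is left to measure the spread of each peak. These p-values therefore rest mainly on a spread shared across peaks. The standard error of Peak_23966 was 0.18 without the block and 0.027 with it, although its batches gave -0.36 and -0.93 from loess-normalized CPM. The higher members were mostly sparser than the lower ones. The 19 higher members were sparse, with a median density of 12.7 CPM per kb, and 17 of them lay in the sparsest 294 members. Their median length was 4895 bp, and 17 were longer than 3000 bp. The 8 lower members had a median density of 36.4 CPM per kb and a median length of 5086 bp. Among them, 5 lay on chromosome 13 in the stretch described below, and the other 3 had 18.6, 29.6 and 439.8 CPM per kb. Femur replicate 2 was the lowest library in 18 of the 19 higher members and the highest in 2 of the 8 lower ones.

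Without femur replicate 2, the test called 9 members higher (background 0.0245%) and 9 lower (background 0.0193%), and 16 of the 27 members called with the block were among them, 9 of the higher and 7 of the lower. Peak_11136 (chr11:120231949-120236538, 4590 bp) had 81.3 and 30.7 loess-normalized CPM in femur and 133 and 106 in mandible. Its log2 fold change was 1.24 with the block (standard error 0.127, adjusted p = 3.64e-16 in edgeR), 1.09 without it (adjusted p = 0.963) and 0.54 without femur replicate 2 (adjusted p = 0.00721). Peak_29057 (chr2:13584196-13591475, 7280 bp) had 85.2 and 32.9 in femur and 88.1 and 185 in mandible. Nearly all of its difference lay in batch B, 2.49 against 0.05 in batch A, and its log2 fold change was 1.27 with the block (adjusted p = 1.09e-13 in edgeR) and 1.21 without it (adjusted p = 1). The lowest p-value with the block was that of Peak_23966, the densest member, whose log2 fold change was -0.64 with the block (adjusted p = 8.07e-75 in edgeR), -0.71 without it (adjusted p = 1) and -0.13 without femur replicate 2 (adjusted p = 1). Its size depended on the scaling, since the fits of all libraries gave -0.22 with library size alone, -0.12 with TMM and -0.11 with DESeq2, with adjusted p-values of 0.84, 0.946 and 0.999 in edgeR and DESeq2.

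**Figure D4:**
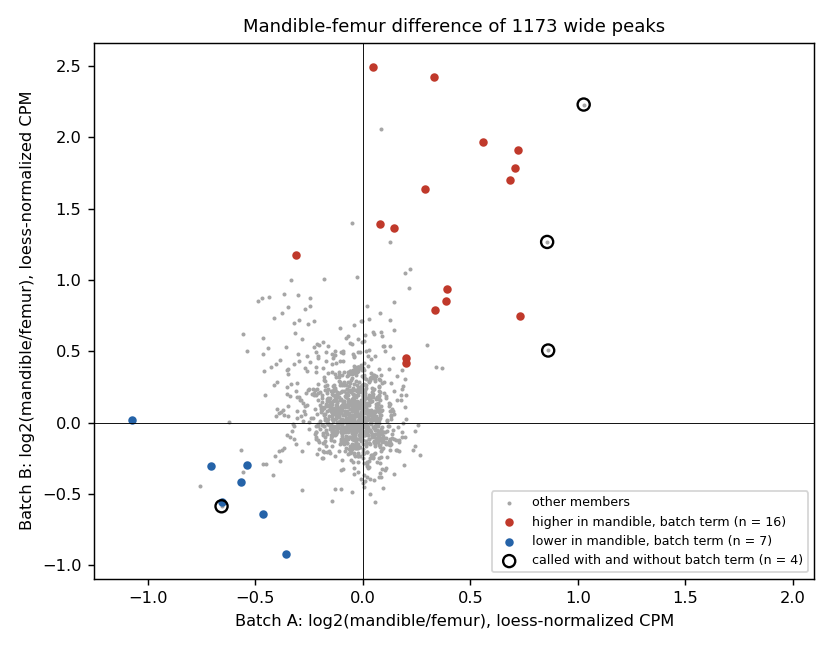
Log2 difference of mandible minus femur in batch A against that in batch B from loess-normalized CPM for the 1173 members, with the members called only with a batch term in red (higher, 16) and blue (lower, 7) and the 4 called with and without it circled. Most called members that are higher in mandible lie further from 0 in batch B than in batch A, up to 2.49 against 0.05 in Peak_29057, and the bulk of the members shows no diagonal trend (Spearman correlation -0.09).

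Of the other members called higher with the block, Peak_5140, Peak_21932, Peak_8436 and Peak_12403 had log2 fold changes of 1.32, 1.38, 1.20 and 1.27, with adjusted p-values in edgeR of 2.16e-09, 1.44e-10, 0.000494 and 0.00158. Without the block their adjusted p-values in edgeR were 0.0754, 0.466, 0.2135 and 0.536. With loess their differences were 0.72, 0.33, 0.68 and 0.56 in batch A and 1.91, 2.42, 1.70 and 1.97 in batch B. All 4 had a mean of at most 49.1 CPM. Peak_21932 (chr16:55627849-55631848, 4000 bp) had 38.4 and 17.1 loess-normalized CPM in femur and 48.4 and 91.9 in mandible. Peak_27150, on chromosome 19, was less uneven, with 89.4 and 67.8 CPM in femur and 160 and 123 CPM in mandible and a difference of 0.73 in batch A and 0.74 in batch B from loess-normalized CPM. On the same chromosome, Peak_27163 was also called with the block (log2 fold change 0.31, adjusted p = 1.91e-06 in edgeR) but not without it (adjusted p = 0.518). Peak_6404 (chr10:96455507-96466677, 11171 bp) was called although its batches disagreed, with -0.31 in batch A and 1.18 in batch B, and its log2 fold change turned from 0.43 with the block (adjusted p = 0.0318 in edgeR) to -0.09 without femur replicate 2.

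The members called lower on chromosome 13 lay in 1 stretch. Between 21962908 and 23925147, limits set after the values were seen, there were 9 members, and all 9 log2 fold changes were negative (median -0.42). Both limits were ends of members called lower with the block, so the shared direction was partly fixed by this choice. Just before the start, Peak_13861 and Peak_13865 were lower in mandible in both batches with loess. Just after the end, Peak_13958 and Peak_13962 had -0.45 and -0.37 in batch A but 0.19 and 0.09 in batch B. Mandible was below femur in both batches in 8 of the 9, and 8 passed p under 0.05 without adjustment, while 5 were called with the block and 1, Peak_13956, without it. Batch A gave a median of -0.54 and batch B of -0.30. Peak_13867, the first of the stretch and 2035 bp long, had 93.7 and 84.2 loess-normalized CPM in femur and 59.5 and 57.2 in mandible. Peak_13935, the longest with 6835 bp, had 313 and 243 in femur and 192 and 197 in mandible. Peak_13897 (4240 bp) had 193 and 174 in femur and 130.1 and 130.0 in mandible. In these 3 peaks both mandible libraries were alike and lay below both femur libraries. Within the limits the exception was Peak_13930, with 131 and 114 in femur and 117 and 120 in mandible and a log2 fold change of -0.04. Without femur replicate 1 the median of the stretch was -0.28, with 8 of 9 negative and 4 called. Without femur replicate 2 it was -0.54 and 6 of the 9 were called, and without mandible replicate 2 it was -0.43 and 0 were called in edgeR (8 of 9 without adjustment). With TMM, library size alone and DESeq2 the medians were -0.20, -0.29 and -0.19, with 8 of 9 negative in each and 0 called by edgeR or DESeq2 (without adjustment, 2, 6 and 2 of the 9 passed p under 0.05). The other 3 members called lower with the block were Peak_7196, Peak_23966 and Peak_55417. Peak_55417 (chr9:110248467-110254617, 6151 bp) had 136 and 138 loess-normalized CPM in femur and 98.4 and 88.8 in mandible, a log2 fold change of -0.55 with the block (adjusted p = 0.0012 in edgeR). Peak_7196 rested on batch A, with -1.07 there and 0.02 in batch B.

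Very wide peaks often stood next to other peaks. The nearest peak lay within 2000 bp of 585 members (49.9%), against 38.8% of comparison peaks, and within 500 bp of 323 (27.5%), against 19.9%. The median gap over these 585 was 391 bp, and in 47 of them the neighbour was itself a member. The member was the denser of the pair in 83.8%, with a median ratio of 2.22. The neighbours were short, with a median of 489 bp, and short peaks were sparser in the whole set. Peaks of at most 1000 bp had a median of 18.3 CPM per kb, against 42.7 in the members. The difference between sites had the same sign in both peaks of the pair in 62.2% of pairs in batch A and 69.7% in batch B. These shares were not set against pairs of other peaks. Across the autosomes, 87 groups of members with gaps of at most 20000 bp held 182 members (15.5%), and 7 of these groups had 3 members or more.

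The largest group, of 4 members, lay on chromosome 10 from 62326666 to 62345468. Its members were Peak_5139, Peak_5140, Peak_5141 and Peak_5142, with gaps of 625, 140 and 102 bp between them, and all 4 had a positive log2 fold change with a median of 0.58. Peak_5140 had 30.9 and 17.8 library-size CPM in femur and 51.5 and 67.1 in mandible, and Peak_5139 had 34.8 and 25.4 in femur and 40.03 and 52.5 in mandible. Both mandible libraries lay above both femur libraries in these peaks. Peak_5142, the longest with 7820 bp, had 205 and 145 in femur and 229 and 207 in mandible, and a log2 fold change of 0.15 with an unadjusted p of 0.156 in edgeR. The median of the group was 0.31 without femur replicate 2, with 3 of 4 positive. Neighbours could also differ, as in Peak_29057 and Peak_29056, 2 members 172 bp apart on chromosome 2. Peak_29056, of 7128 bp and 41.9 CPM per kb, had a difference of -0.46 in batch A and 0.48 in batch B, whereas the sparser Peak_29057 had 0.05 and 2.49.

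The deviation of single libraries grew as density fell. In the 36 members under 15 CPM per kb, femur replicate 2 was the lowest library in 27 and mandible replicate 2 the highest in 19 (52.8%). Among all members femur replicate 2 was the lowest in 39.4% and mandible replicate 2 the highest in 38.6%, against 32.6% and 26.6% of all peaks. Mandible replicate 1 was the lowest in 35.2% of all members, against 20.25% of comparison peaks and 21.7% of all peaks. The median deviation of femur replicate 2 from the other 3 libraries was -0.76 in these 36 members, and 13 of them lay at -1 or below on the log2 scale. In the 237 comparison peaks under the same density, the median deviation of femur replicate 2 was 0.00 with an SD of 0.59, and it was the lowest library in 37.6%. The difference between sites in the 36 members had a median of 0.09 in batch A and 0.83 in batch B from loess-normalized CPM. Of these members 21 (58.3%) had an unadjusted p-value under 0.05 in edgeR, 19 of them higher in mandible, against 34 of the 237 comparison peaks (14.3%). With the block, 13 of the 36 members were called, all higher in mandible (background 0.0858%), and so were 11 of the 237 comparison peaks, with 1 more called lower (background 0.0193%). The part of femur replicate 2 in the differences of these sparse members was not tested beyond leaving it out.

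**Figure D5:**
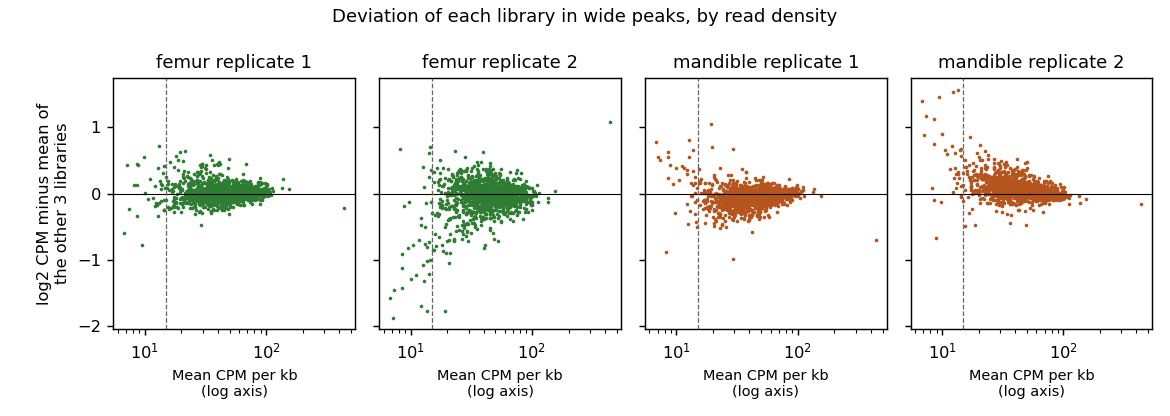
Deviation of each library from the mean of the other 3 in log2 loess-normalized CPM against mean CPM per kb on a log axis for the 1173 members, with a dashed line at 15 CPM per kb. Below the line femur replicate 2 falls to a median of -0.76 and that of mandible replicate 2 is 0.35, and the SD for femur replicate 2 narrows from 0.43 in the sparsest 294 members to 0.21 in the next 293.

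Very wide peaks were found on all 19 autosomes. Their share of the peaks of a chromosome ranged from 1.56% on chromosome 14 (32 of 2054 peaks) to 2.56% on chromosome 10 (83 of 3243 peaks). The median log2 fold change of the members of a chromosome ranged from -0.05 on chromosome 13 to 0.06 on chromosome 18.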

How the data were processed

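ATAC-seq was measured in 4 libraries of bone marrow monocytes. The authors used Trimmomatic for trimming, Bowtie2 for alignment to GRCm39 and Picard for duplicates, and kept mapping qualities of at least 20. Genrich, in its ATAC mode, which builds intervals around cut sites, called peaks on each pair of duplicates, and bedtools merged the peaks of both sites. The deposited files hold raw counts of reads per merged peak (featureCounts 2.0.6, fragments up to 1000 bp, both mates counted separately). Merging joins neighbouring intervals and so lengthens peaks.

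The very wide peaks, the comparison peaks and the tests were chosen with earlier results of these data known. Library-size CPM is the count per 1000000 counts in all 57090 peaks. Log2 values used a pseudocount of 0.5 scaled to library size. Counts were tested in R 4.3.3 with edgeR 4.0.16 (glmQLFit and glmQLFTest, skeletal site as the only term, loess offsets with a span of 0.3 on the mean log CPM from limma 3.58.1) over all peaks, with Benjamini-Hochberg adjustment and a threshold of 0.05. Standard errors are the size of the log2 fold change over the square root of F. Of these fits, only the edgeR fit with loess offsets and skeletal site as the only term was also run on simulated counts, with results not given here. Alternatives were TMM, library size alone, DESeq2 1.42.0, at least 10 counts in every library, a replicate block, other length limits and each library left out. Same-numbered libraries share pooled mice by the labels, which pairs them, and their deviations from the site means had a correlation of -0.03 across members and -0.17 across all peaks. The rule for named peaks took every called member, the 5 of lowest p with the block that moved alike in both batches, the 5 widest, the 5 of highest CPM, the 5 densest, the 5 sparsest and 2 on each side of the length limit. Other peaks were named after their values were seen. An annotation and a genome of GRCm39 were not used here, so genes, gene lists, cell type markers and sequences of peaks were not analysed here.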

Additional observations from a re-analysis of the deposited data

Results flagged for a closer look

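The median log2 difference of mandible minus femur in very wide peaks, relative to comparison peaks of like mean CPM, had opposite signs in the batches in 3 bands. From loess-normalized CPM batch A gave -0.0602 and batch B 0.128 at 40 to 80 CPM, -0.0596 and 0.0797 at 80 to 160 CPM, and -0.0407 and 0.0579 at 160 to 320 CPM. Each batch had 1 library per site, so this difference between the batches was not tested.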

How the results depend on the processing

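The loess fit called 3 members higher and 1 lower in mandible at an adjusted p-value under 0.05. Higher calls were 11 with library size alone, 8 with DESeq2, 19 with the replicate block and 5 at an adjusted p under 0.1. Lower calls were 0 with TMM, library size alone and DESeq2 (5, 15 and 4 at an unadjusted p under 0.05) and 8 with the block. With each library left out, calls ranged from 4 to 107 higher and from 1 to 36 lower, the most without femur replicate 1. At an unadjusted p under 0.05 there were 46 higher and 25 lower, against 337 and 5 with TMM, 177 and 15 with library size alone, 226 and 4 with DESeq2, 78 and 38 in peaks over 1500 bp, 21 and 15 over 3000 bp, and 27 to 204 and 13 to 104 with a library left out. In such fits 1 library stands alone in its site and is assumed to vary like the other site. The median difference in batch A turned from 0.0718 to -0.0388 with loess-normalized CPM. In batch B it moved from 0.186 to 0.0597 with loess, 0.318 with TMM and 0.291 over 3000 bp. Median CPM moved from 106.6 to 157.8 over 3000 bp and 82.3 over 1500 bp, and median density from 42.7 to 38.6 CPM per kb over 3000 bp. The cause was not tested. The 27 members called with the replicate block were followed through the alternatives, which gave 243 combinations. Each was compared with the loess fit without the block, which had called only 4 of the 27. In 157 combinations the direction was kept and the peak stayed called or uncalled as in that fit. Most of these were peaks uncalled in both fits, so the number does not measure how well calls held. A call was gained in 79, lost in 6, and the direction reversed in 1. The gains under the block itself were fixed in advance, since the block chose these members. The reversal was that of Peak_6404, whose log2 fold change ranged from -0.0882 without femur replicate 2 to 0.994 without femur replicate 1. The SD of the deviation of femur replicate 2 was 0.274 with loess and 0.271 with library size alone, an alternative chosen after seeing the data. Alternatives that need genes of GRCm39 were not run. The replicate block changed the counts of adjusted calls given above, and gave 65 higher and 30 lower members at an unadjusted p under 0.05. Whether depth limited the number of calls was not tested.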
